A study of Mus musculus with 9 samples.

Results

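The prostaglandin and leukotriene pathway is represented here by 8 genes, Ptgs1, Ptgs2, Ptges, Ptger2, Ptger4, Alox5, Alox5ap and Ltc4s, chosen by name among 18042 gene symbols in the table. The choice was made with earlier results of these data known. RNA was sequenced from tumour-associated macrophages (CD11b+ F4/80+ cells) that were sorted from subcutaneous tumours of MC38, a mouse colon carcinoma line. The hosts were wild-type female C57BL/6 mice, 6 to 8 weeks old, that had received 1000000 tumour cells and were treated from day 9 by injection into the tumour. The Control group received an equal volume of solvent (PBS), the OMVs group OMVs, and the IN@OMVs group IN@OMVs, both at 12.5 µg of vesicle protein per mouse (625 µg/kg), with 3 libraries in each group. OMVs usually stands for outer membrane vesicles, small particles released by Gram-negative bacteria. The sources used here give neither what IN stands for nor whether 1 library is 1 mouse or a pool, so p-values measure the spread between these libraries only.

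Both branches start from arachidonic acid released from membranes. In the prostaglandin branch the cyclooxygenases COX-1 (Ptgs1, constitutive in most cells) and COX-2 (Ptgs2, inducible by inflammatory stimuli) make PGH2, which the inducible prostaglandin E synthase mPGES-1 (Ptges) turns into PGE2, and PGE2 signals to myeloid cells through its cAMP-raising receptors EP2 (Ptger2) and EP4 (Ptger4). In the leukotriene branch 5-lipoxygenase (Alox5), helped by the membrane protein FLAP (Alox5ap), makes LTA4, which LTC4 synthase (Ltc4s) joins to glutathione to give the first cysteinyl leukotriene. In tumours PGE2 is best known as a product of tumour cells and myeloid cells that dampens the response of T cells and NK cells.

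Of the 8 genes, 1 passed the test in any comparison. Ptgs2 was lower in IN@OMVs than in either other group, while Ptgs1, which makes the same product, did not pass in any comparison. Because 1 cyclooxygenase gene passed and the other did not, both promoters are shown, from the RefSeq table of GRCm38.p6, where 7 of the 8 genes were matched by symbol and Alox5ap was not. Each sequence runs from 250 bases before to 30 bases after the annotated start, on the plus strand, at chr1:150099781-150100060 for Ptgs2 and chr2:36230176-36230455 for Ptgs1, with matches in capitals.
Ptgs2: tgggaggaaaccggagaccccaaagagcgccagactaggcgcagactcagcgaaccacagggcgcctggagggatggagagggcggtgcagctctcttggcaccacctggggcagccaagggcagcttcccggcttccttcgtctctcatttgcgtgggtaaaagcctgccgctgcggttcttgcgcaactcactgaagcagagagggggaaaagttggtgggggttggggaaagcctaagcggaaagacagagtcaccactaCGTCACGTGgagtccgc
Ptgs1: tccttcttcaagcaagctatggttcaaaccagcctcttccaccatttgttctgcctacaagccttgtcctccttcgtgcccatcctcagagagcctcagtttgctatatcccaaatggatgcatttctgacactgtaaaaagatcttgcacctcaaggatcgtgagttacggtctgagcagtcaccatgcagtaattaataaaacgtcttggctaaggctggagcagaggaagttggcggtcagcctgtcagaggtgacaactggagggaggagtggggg
The window searched, on both strands, was 300 bases long and ended 50 bases after the annotated start. Sites outside this window were not searched, so an absent match holds for the window only. In Ptgs2 the CRE core CGTCA lay at bases 14 to 18 after the annotated start and overlapped the E-box CACGTG at bases 17 to 22. Ptgs1 and the other 5 genes matched neither of them, and none of the 7 held the AP-1 site TGANTCA, the TATA box TATAAA or the NF-kB consensus. Over all 32851 promoters of this length, 20.8% held CGTCA, 7.15% CACGTG, 7.81% TGANTCA, 13.6% TATAAA and 8.46% the NF-kB consensus. These matches describe the letters of the windows and nothing about a factor.

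Libraries held 16813230 to 17288322 expected counts (read counts per gene as estimated by the software that assigned the reads), and levels are given as CPM (counts scaled to a common library size, with TMM factors). The IN@OMVs 1 library stood apart. Its chi-square per degree of freedom against the other IN@OMVs libraries was 42.1 and 34.8, against 2.07 to 14.2 for every other pair within a group. The 7 macrophage markers summed to 9270 to 13500 CPM in the 9 libraries, and 0 of 7 passed in any comparison by edgeR (at most 2 with unadjusted p under 0.05). DESeq2 called 1 of them, Itgam, which encodes CD11b, in both comparisons of IN@OMVs, and limma-voom called it in IN@OMVs against Control. Over all 13090 genes tested, unadjusted p was under 0.05 for 1105 in OMVs against Control (edgeR). The counts were 2594 in IN@OMVs against Control and 1879 in IN@OMVs against OMVs. Fibroblast markers summed to 1450 CPM in IN@OMVs 1 and 3340 to 5640 CPM in the other libraries. T cell markers summed to 184 to 216 CPM in library 1 of every group and 39.2 to 89.6 CPM in the others. Neutrophil markers were lower in IN@OMVs, as described beside Ptgs2. In bulk RNA, fewer cells of a type and less RNA per cell cannot be told apart.

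Across the 9 libraries the genes spanned a wide range per length (CPM per kilobase of exon, from the GENCODE M21 gene models). Alox5ap was highest with a mean of 216, followed by Ptgs2 with 41.3. Ptgs1 with 14.7 and Ptges with 12.6 overlapped each other's ranges (13.1 to 17.4 and 5 to 19.3). Ptger4 with 4.43, Alox5 with 3.9, Ptger2 with 2.98 and Ltc4s with 2.55 formed the low end, where the ranges of neighbours also overlapped. Alox5ap and Ptgs2 kept their places in every group, Ptgs2 at 44 in Control, 56.7 in OMVs and 23 in IN@OMVs.

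Ptgs2 had the clearest pattern of the pathway. Its level was 222, 197 and 186 CPM in Control libraries 1 to 3, 223, 288 and 268 CPM in OMVs, and 117, 97.2 and 103 CPM in IN@OMVs. Every IN@OMVs library lay below every library of the other groups, and the OMVs libraries lay just above the Control libraries, by as little as 222 against 223 CPM. The means were 105 ± 10.1, 260 ± 33 and 202 ± 18.4 CPM (SD, n = 3) in IN@OMVs, OMVs and Control.

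Against Control, Ptgs2 fell by 0.94 ± 0.11 (SE) on the log2 scale in IN@OMVs, a level 47.7% lower (95% interval of the log2 change -1.19 to -0.68, adjusted p = 0.00142, edgeR's quasi-likelihood test with Benjamini-Hochberg adjustment over 13090 genes). It was the only 1 of the 8 genes to pass in that comparison, in which 6.55% of all genes tested passed and 3.24% passed as lower. Against OMVs the same gene fell by 1.30 ± 0.11, a 2.46-fold lower level (interval -1.56 to -1.05, adjusted p = 0.000635, edgeR), and ranked 22 of all genes by p. Again it was 1 of 8, in a comparison where 2.85% of all genes passed and 1.75% passed as lower. In OMVs against Control the difference was 0.37 ± 0.11 (interval 0.12 to 0.61, unadjusted p = 0.00905) and did not pass (adjusted p = 0.305, edgeR). The comparisons with Control share its 3 libraries. Both calls for IN@OMVs held under all 17 alternatives tried, whereas OMVs against Control passed in 1 of them, without library 1 of every group (0.54, adjusted p = 0.00177, edgeR).

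**Figure D1:**
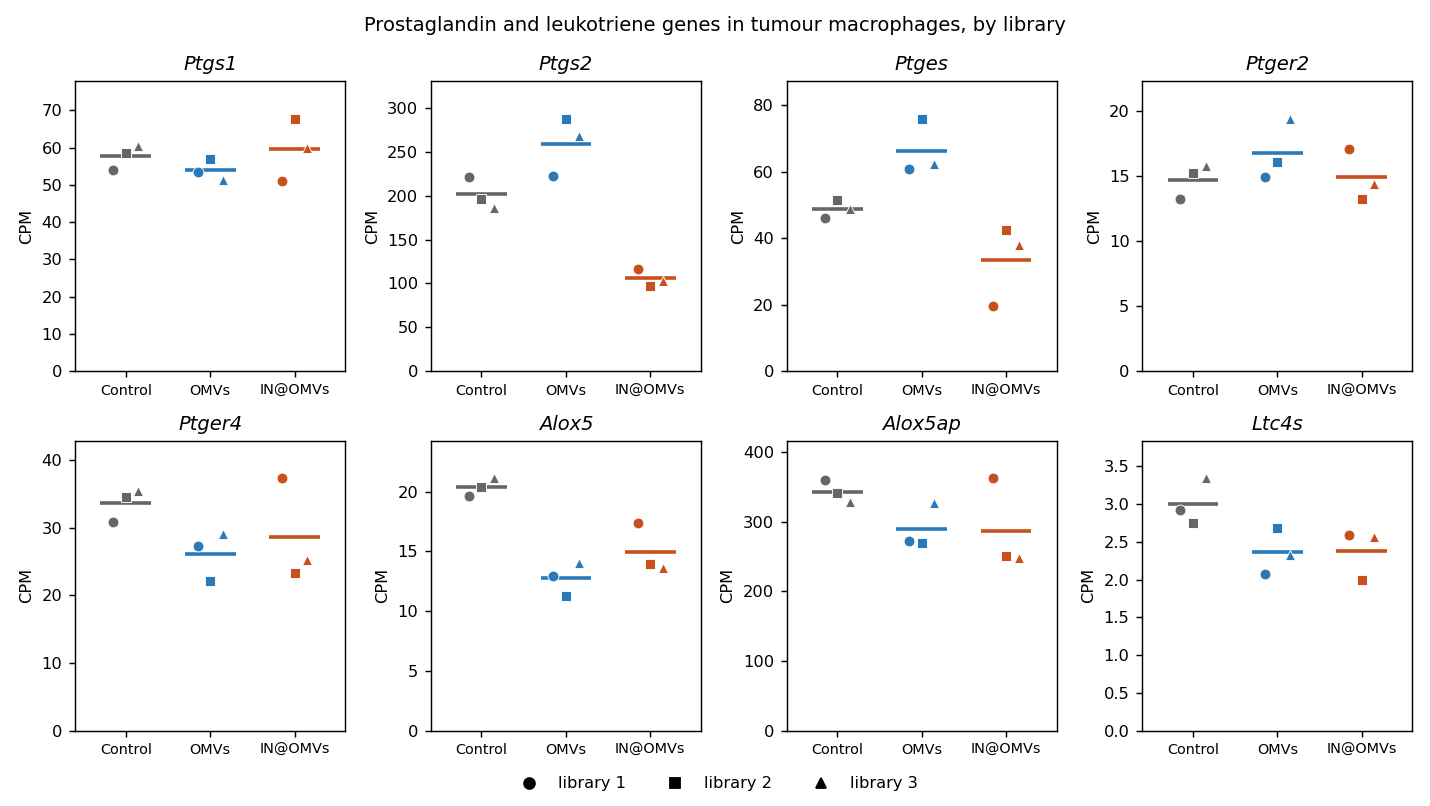
CPM of the 8 genes in each library (y axis, from 0), by group (x axis), with library 1, 2 and 3 as circle, square and triangle and a bar at the group mean. Ptgs2 in IN@OMVs lies between 97.2 and 117 CPM, below all 6 other libraries, while Ptgs1 overlaps in all groups.

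Neutrophils also express Ptgs2, and their markers moved the same way in IN@OMVs. All 10 markers had negative fold changes in IN@OMVs against Control and 9 of them passed, as did 9 of 10 against OMVs. Their sum was 789 to 1160 CPM in Control, 564 to 749 CPM in OMVs and 130 to 197 CPM in IN@OMVs. None was at 0 in every library of a group: Ly6g, the defining surface marker, was at 3.33 to 5.25 CPM in Control, 1.32 to 2.09 CPM in OMVs and 0.114 to 0.123 CPM in IN@OMVs. Monocyte markers fell too, with 5 of 7 lower in IN@OMVs against Control, while Ly6c2 had a positive estimate (0.39 ± 0.23). Monocyte sums were 2590 to 2840, 1860 to 2200 and 1250 to 1470 CPM in Control, OMVs and IN@OMVs. In OMVs against Control 2 of 7 were lower, Chil3 (-1.18 ± 0.15, adjusted p = 0.0234, edgeR) and Hp (-0.68 ± 0.09, adjusted p = 0.0245, edgeR), and 3 by DESeq2. Also in OMVs against Control, 0 of 10 neutrophil markers passed by edgeR (5 with unadjusted p under 0.05, and 2 by DESeq2), and all 10 estimates were negative. The estimate for Ptgs2 was positive there and did not pass either (adjusted p = 0.305, edgeR). The sort was for CD11b+ F4/80+ cells, and neutrophils carry little F4/80. Neutrophil markers were nonetheless read in every group, at the sums given above. The part of these cells in the Ptgs2 result was not tested.

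**Figure D2:**
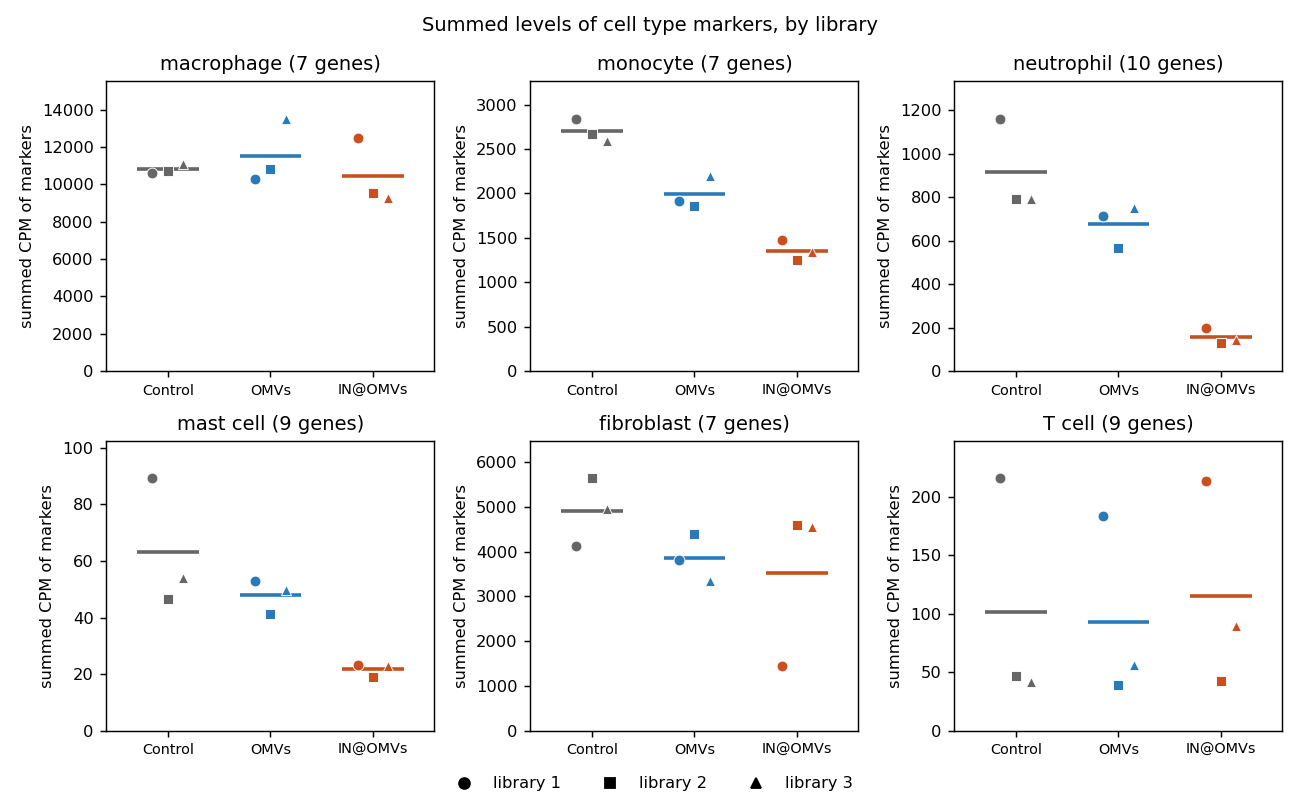
Summed CPM of marker lists (y axis, from 0) in each library, by group (x axis), with a symbol per library number and a bar at the group mean. Neutrophil, monocyte and mast cell sums are lowest in IN@OMVs, and the fibroblast sum of IN@OMVs 1 is 1450 CPM against 3340 or more elsewhere.

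Ptgs1, the constitutive cyclooxygenase, stood at 54.1, 58.6 and 60.3 CPM in Control, 53.5, 56.8 and 51.4 CPM in OMVs and 50.9, 67.7 and 60 CPM in IN@OMVs. All groups overlapped. Its change was -0.10 ± 0.10 in OMVs and 0.05 ± 0.10 in IN@OMVs against Control, with intervals of -0.32 to 0.13 and -0.18 to 0.27, so that a change of the size seen for Ptgs2 in IN@OMVs lies outside them. Platelets, which are rich in COX-1, had summed markers of 145 to 266 CPM in the 9 libraries. Of this sum Pf4 gave 138 to 257 CPM, while Gp9 and Gp5 were at 0.23 CPM or less. Of the 4 tested platelet markers 0 passed in any comparison by edgeR, DESeq2 or limma-voom (1 with unadjusted p under 0.05 in IN@OMVs against Control, 0 in the others, edgeR).

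The balance of the cyclooxygenases, as the ratio of Ptgs2 to Ptgs1 normalised counts, therefore separated the groups. It was 3.09 to 4.1 in Control, 4.17 to 5.21 in OMVs and 1.44 to 2.29 in IN@OMVs, with no overlap between any of them. On the log2 scale the means were 1.81 ± 0.21, 2.26 ± 0.17 and 0.83 ± 0.34 (SD, n = 3). These counts are not corrected for gene length, so the ratio compares libraries and not the amounts of both transcripts.

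Ptges, the terminal PGE2 synthase that is commonly induced together with COX-2, had the same order of group means as Ptgs2 but a wider spread. It was at 46, 51.4 and 48.9 CPM in Control, 60.7, 75.9 and 62.3 CPM in OMVs and 19.6, 42.5 and 37.8 CPM in IN@OMVs. The groups did not overlap, with OMVs highest and IN@OMVs lowest, and IN@OMVs 1 was far below its own group. IN@OMVs against OMVs gave -0.99 ± 0.23 (interval -1.52 to -0.46, unadjusted p = 0.00215), just outside the threshold (adjusted p = 0.063, edgeR). Against Control the values were -0.55 ± 0.23 (adjusted p = 0.236, edgeR) for IN@OMVs and 0.44 ± 0.23 (adjusted p = 0.693, edgeR) for OMVs.

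Much of the spread of Ptges in IN@OMVs lay in library 1. Without IN@OMVs 1 the difference from OMVs was smaller in size but passed, at -0.72 (adjusted p = 0.00263, edgeR), and it passed also without IN@OMVs 2 (-1.2, adjusted p = 0.0476, edgeR). OMVs against Control passed too once IN@OMVs 1 was left out of the shared fit (0.44, adjusted p = 0.0384, edgeR). The library with the lowest Ptges was the one with low fibroblast markers, 1450 CPM against 4600 and 4550 CPM in IN@OMVs 2 and 3. In Control and OMVs fibroblast sums were 4130 to 5640 CPM and 3340 to 4400 CPM, ranges that overlapped. The higher Ptges level in OMVs did not pass with all 9 libraries (adjusted p = 0.693, edgeR). Fibroblasts carry neither CD11b nor F4/80, the markers of the sort, yet the fibroblast marker Col3a1 was at 1070 to 3490 CPM in the 9 libraries. The part of fibroblast RNA was not tested. The log2 ratio of Ptges to Ptgs2 was -2.05 ± 0.19 in Control, -1.97 ± 0.12 in OMVs and -1.73 ± 0.74 in IN@OMVs (SD, n = 3), with overlapping groups.

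**Figure D3:**
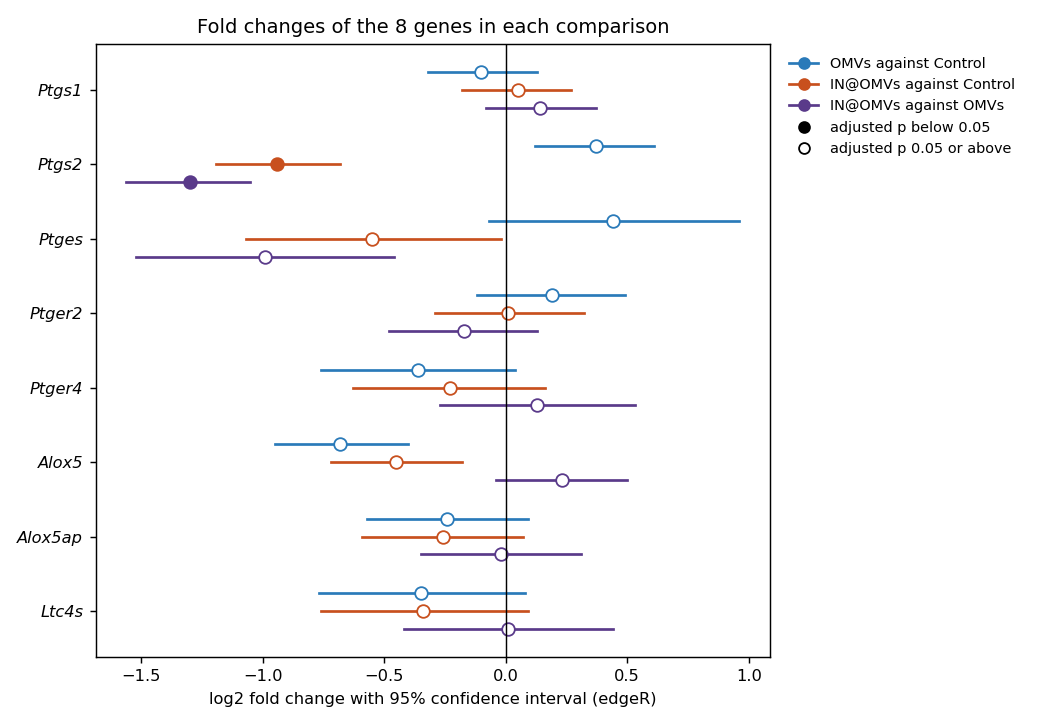
log2 fold change (x axis) of the 8 genes in the 3 comparisons, with 95% confidence intervals of the edgeR fit and filled points where adjusted p was below 0.05. The filled points are Ptgs2 in IN@OMVs against Control (-0.94) and against OMVs (-1.30).

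The PGE2 receptors did not pass in any comparison. EP2 (Ptger2) was at 13.2, 15.2 and 15.8 CPM in Control, 14.9, 16.1 and 19.4 CPM in OMVs and 17.1, 13.2 and 14.4 CPM in IN@OMVs, with all groups overlapping. Its change was 0.19 ± 0.13 in OMVs and 0.01 ± 0.13 in IN@OMVs against Control, the latter with an interval of -0.29 to 0.32. EP4 (Ptger4) was at 30.8, 34.6 and 35.5 CPM in Control, 27.3, 22.1 and 29.1 CPM in OMVs and 37.3, 23.3 and 25.3 CPM in IN@OMVs. The OMVs libraries all lay below Control (-0.36 ± 0.18, interval -0.76 to 0.04, adjusted p = 0.659, edgeR), and so did IN@OMVs 2 and 3, while IN@OMVs 1 was the highest of the 9.

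For EP4 the outcome in IN@OMVs rested on that library. With it, the change against Control was -0.23 ± 0.17 (adjusted p = 0.535, edgeR), and without it -0.47 (adjusted p = 0.0236, edgeR). The ratio of Ptger4 to Ptger2 was 2.24 to 2.32 in Control, 1.37 to 1.83 in OMVs and 1.75 to 2.19 in IN@OMVs, so that Control lay above both treated groups. Ptger4 shares 82 exon bases with Ttc33 on the other strand, and the sources used here do not say whether reads were counted by strand.

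In the leukotriene branch the enzyme itself, Alox5, had the most even Control values of the 8 genes. It was at 19.6, 20.4 and 21.1 CPM in Control, 12.9, 11.3 and 14 CPM in OMVs and 17.4, 13.9 and 13.6 CPM in IN@OMVs. Both treated groups lay below Control without overlap, and they overlapped each other. The change was -0.68 ± 0.12 in OMVs (interval -0.95 to -0.40, unadjusted p = 0.000328, adjusted p = 0.0618, edgeR) and -0.45 ± 0.12 in IN@OMVs (interval -0.72 to -0.18, adjusted p = 0.0627, edgeR), so neither passed. IN@OMVs against OMVs gave 0.23 ± 0.12 (interval -0.04 to 0.50).

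Alox5 stood close to the threshold and its call moved with the setting. Without IN@OMVs 1 both differences passed, at -0.68 (adjusted p = 0.0049, edgeR) for OMVs and -0.58 (adjusted p = 0.00453, edgeR) for IN@OMVs. DESeq2 called both as well, with adjusted p = 0.00046 for OMVs and 0.0209 for IN@OMVs. By limma-voom the IN@OMVs difference passed (adjusted p = 0.0405) and the OMVs difference did not. Over the 17 alternatives the log2 change stayed between -0.75 and -0.60 in OMVs and between -0.60 and -0.38 in IN@OMVs, and 4 of the 17 passed in each.

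FLAP (Alox5ap), the most abundant of the 8 per length, was at 360, 341 and 328 CPM in Control, 272, 270 and 327 CPM in OMVs and 362, 250 and 248 CPM in IN@OMVs. OMVs lay below Control by a narrow margin, and IN@OMVs was split, with library 1 above all Control libraries and libraries 2 and 3 below all of them. The changes were -0.24 ± 0.15 in OMVs (adjusted p = 0.764, edgeR) and -0.26 ± 0.15 in IN@OMVs (adjusted p = 0.382, edgeR). Without IN@OMVs 1 the latter became -0.47 and passed (adjusted p = 0.00668, edgeR).

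LTC4 synthase (Ltc4s) was the lowest, resting on 35 to 58 expected counts per library. It was at 2.92, 2.75 and 3.34 CPM in Control, 2.07, 2.68 and 2.33 CPM in OMVs and 2.59, 2 and 2.56 CPM in IN@OMVs, both treated groups below Control without overlap. The changes of -0.35 ± 0.19 and -0.34 ± 0.19 had intervals of -0.77 to 0.08 and -0.76 to 0.09, so neither a fall of the size estimated for Alox5 nor no change lies outside them. Mast cells, basophils and eosinophils are the classical makers of LTC4. Of their markers, Ms4a2 was at 0 in 8 libraries, Cpa3 at 0 to 0.417 CPM, the basophil list at 0.298 CPM or less and the eosinophil list at 1.35 to 2.46 CPM. The mast cell list summed to 46.7 to 89.2 CPM in Control, 41.2 to 53 CPM in OMVs and 18.9 to 23.2 CPM in IN@OMVs, where Hdc, which neutrophils also express, gave 36.8 to 73.1, 30.4 to 40.6 and 9.07 to 13.9 CPM of it and Kit most of the rest.

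The group means of the 8 genes, set beside each other, are a description without a test between the branches. The means of all 3 leukotriene genes lay below Control in both treated groups, differing between IN@OMVs and OMVs by 0.23 or less on the log2 scale, and so did the mean of the PGE2 receptor gene Ptger4. None of these 4 passed with all 9 libraries in edgeR. Ptgs2 and Ptges had their lowest means in IN@OMVs and their highest in OMVs, where neither passed against Control, and Ptgs1 and Ptger2 had overlapping groups. Neutrophil and monocyte marker lists also lay lower in both treated groups, with median log2 changes of -0.44 and -0.40 in OMVs and -3.44 and -1.04 in IN@OMVs against Control. The monocyte marker Ly6c2 went the other way, with estimates of 0.04 in OMVs and 0.39 in IN@OMVs. The part of both cell types in the lower means of these genes was not tested. Counted without a test, 6 of the 8 genes did not overlap between OMVs and Control (Ptgs2 and Ptges higher, Ptger4, Alox5, Alox5ap and Ltc4s lower), against 19.8% of all genes tested, 9.89% in each direction. For IN@OMVs against Control it was 4 of 8 (Ptgs2, Ptges, Alox5 and Ltc4s, all lower) against 25.9%, of which 12.5% lower, and for IN@OMVs against OMVs 2 of 8 (Ptgs2 and Ptges, lower) against 17.6%, of which 8.72% lower. By the test, 0 of 8 passed in OMVs against Control, where 0.42% of all genes did (55 genes, or 20 with the replicate number as a block). Of the 8, 2 had an unadjusted p under 0.05, beside 1105 of all 13090 genes tested. DESeq2 called 1 of the 8, Alox5, and limma-voom 0. The median log2 change of the 8 genes was -0.17, -0.30 and 0.00 in OMVs against Control, IN@OMVs against Control and IN@OMVs against OMVs, and the median over all genes was 0 in each.

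**Figure D4:**
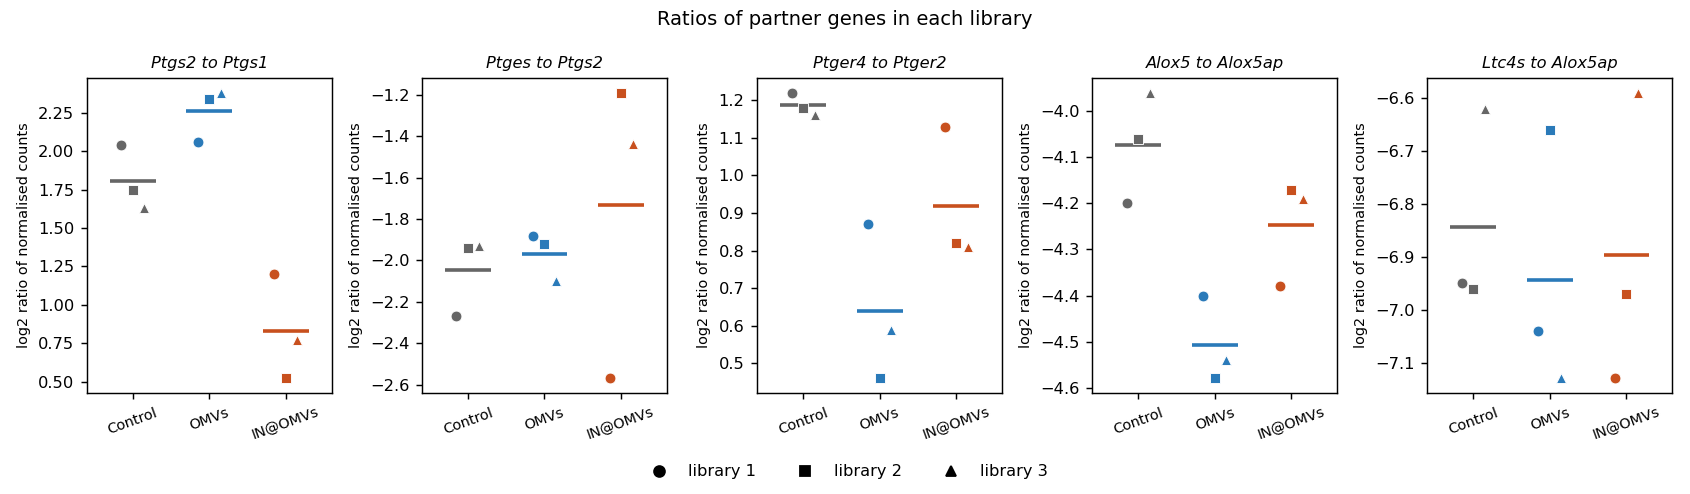
log2 ratio of normalised counts of partner genes (y axis, a separate range for each panel that does not start at 0) in each library, by group (x axis), with a symbol per library number and a bar at the group mean. The Ptgs2 to Ptgs1 ratio lies at 0.52 to 1.2 in IN@OMVs and at 1.63 or above in the other groups.

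The rest of the pathway was read from a list of 55 further genes of eicosanoid release, synthesis, transport, breakdown and sensing, of which 53 were in the table and 36 passed the filter on low counts. In OMVs against Control 0 of the 36 passed (1 by DESeq2) and the median change was -0.04. An unadjusted p under 0.05 was found for 5 of the 36, beside 1105 of all 13090 genes tested. Of the same 36, 3 passed in IN@OMVs against Control, all lower, which is 8.33% against 6.55% of all genes, with a median of -0.12. DESeq2 called 7 in that comparison, including Ptgr1 and Ptges3, whose edgeR estimates were positive (0.34 and 0.17). The share of 6.55% is that of edgeR and is not a background for the DESeq2 count. Against OMVs, 2 passed in IN@OMVs, both lower, or 5.56% against 2.85%, with a median of -0.04. No gene for arachidonate release (0 of 4), prostanoid synthases (0 of 8), prostanoid receptors (0 of 3), leukotriene receptors (0 of 3) or other lipoxygenases (0 of 2) passed in any comparison by edgeR. Their counts with an unadjusted p under 0.05 were 1, 2, 1, 2 and 0 in IN@OMVs against Control, 2, 1, 0, 0 and 0 in OMVs against Control, and 0, 1, 0, 1 and 0 in IN@OMVs against OMVs. Over all 13090 genes tested the counts in these comparisons were 2594, 1105 and 1879. Among these roles DESeq2 called 1 synthase (Ptges3) in each comparison with Control and 1 leukotriene receptor in IN@OMVs against Control, and limma-voom called 0.

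Of the receptors for pro-resolving lipids, 1 of 3 passed. Fpr2, a receptor for lipoxin A4 that also binds formylated peptides and is expressed by neutrophils as well as macrophages, was at 94.7, 80.3 and 83.2 CPM in Control, 94.5, 97 and 115 CPM in OMVs and 52.5, 39.6 and 43.8 CPM in IN@OMVs. The IN@OMVs libraries lay below all others, and OMVs overlapped Control. Its log2 change in IN@OMVs was -0.93 ± 0.12 against Control (adjusted p = 0.0022, edgeR) and -1.18 ± 0.12 against OMVs (adjusted p = 0.0015, edgeR). These sizes are close to those of Ptgs2, and both calls held under all 17 alternatives. Cmklr1, a chemerin receptor that also binds resolvin E1, was at 117 to 124 CPM in Control and 115 to 151 CPM in IN@OMVs and did not pass (0.07 ± 0.11).

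In transport and breakdown 1 of 5 passed by edgeR, and DESeq2 also called Ptgr1 in IN@OMVs against Control. Abcc4, which exports prostanoids from the cell, was at 39.2, 36.9 and 36.8 CPM in Control, 30.8, 31.3 and 33.6 CPM in OMVs and 29.9, 26.2 and 27.9 CPM in IN@OMVs, a stepwise order of groups with no overlap. It was lower in IN@OMVs than in Control (-0.43 ± 0.07, adjusted p = 0.00694, edgeR), while OMVs against Control (-0.24 ± 0.07, adjusted p = 0.272, edgeR) and IN@OMVs against OMVs (-0.19 ± 0.07, adjusted p = 0.241, edgeR) did not pass.

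Of the leukotriene enzymes 1 of 8 passed by edgeR, and DESeq2 also called Lta4h in IN@OMVs against Control. Ggt1, which converts LTC4 to LTD4, was at 4.53, 2.16 and 1.61 CPM in Control, 1.55, 0.816 and 1.31 CPM in OMVs and 0.185, 0.114 and 0.233 CPM in IN@OMVs. The IN@OMVs values rest on 3, 2 and 4 expected counts. Its change was -3.91 ± 0.54 against Control (adjusted p = 0.00319, edgeR) and -2.75 ± 0.57 against OMVs (adjusted p = 0.0397, edgeR). The latter passed in 10 of 17 alternatives. It was lost without IN@OMVs 2 (adjusted p = 0.115), IN@OMVs 3 (0.107), OMVs 1 (0.138), OMVs 2 (0.0652), OMVs 3 (0.108) or Control 2 (0.067) and with limma-voom (0.087). Ggt1 and the neutrophil sum had the same order of groups, Control highest and IN@OMVs lowest. Both were highest in Control 1, where the neutrophil sum was 1160 CPM. Within OMVs and within IN@OMVs, Ggt1 rested on 14 to 27 and 2 to 4 expected counts, too few to order the libraries. The part of neutrophils in the results for Ggt1 and Fpr2 was not tested.

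Among the further genes that passed in no comparison by edgeR with all 9 libraries, the most abundant were Ptges3, Cmklr1, Dpep2, Cyp4f18, Akr1b3 and Tbxas1. Ptges3, the cytosolic PGE synthase and co-chaperone p23, was at 135 to 140 CPM in Control, 152 to 156 CPM in OMVs and 150 to 161 CPM in IN@OMVs. Both treated groups lay above Control, by 0.17 ± 0.05 each (adjusted p = 0.254 and 0.0744, edgeR), and DESeq2 called both differences (adjusted p = 0.0407 and 0.0141). Its counts were fractional in all 9 libraries, which marks reads shared with other sequences. Tbxas1, thromboxane synthase, was at 83.8 to 91.3 CPM in Control, 85.9 to 111 CPM in OMVs and 102 to 135 CPM in IN@OMVs, and IN@OMVs against Control gave 0.38 ± 0.13 (adjusted p = 0.129, edgeR). Dpep2, which takes LTD4 to LTE4, Cyp4f18, which inactivates LTB4, and Akr1b3, an aldose reductase that can make PGF2α, had log2 changes of -0.17 to 0.02 against Control in the treated groups, with adjusted p of 0.577 or more. Without IN@OMVs 1, Cyp4f18 passed in IN@OMVs against Control (-0.35, adjusted p = 0.0138, edgeR).

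**Figure D5:**
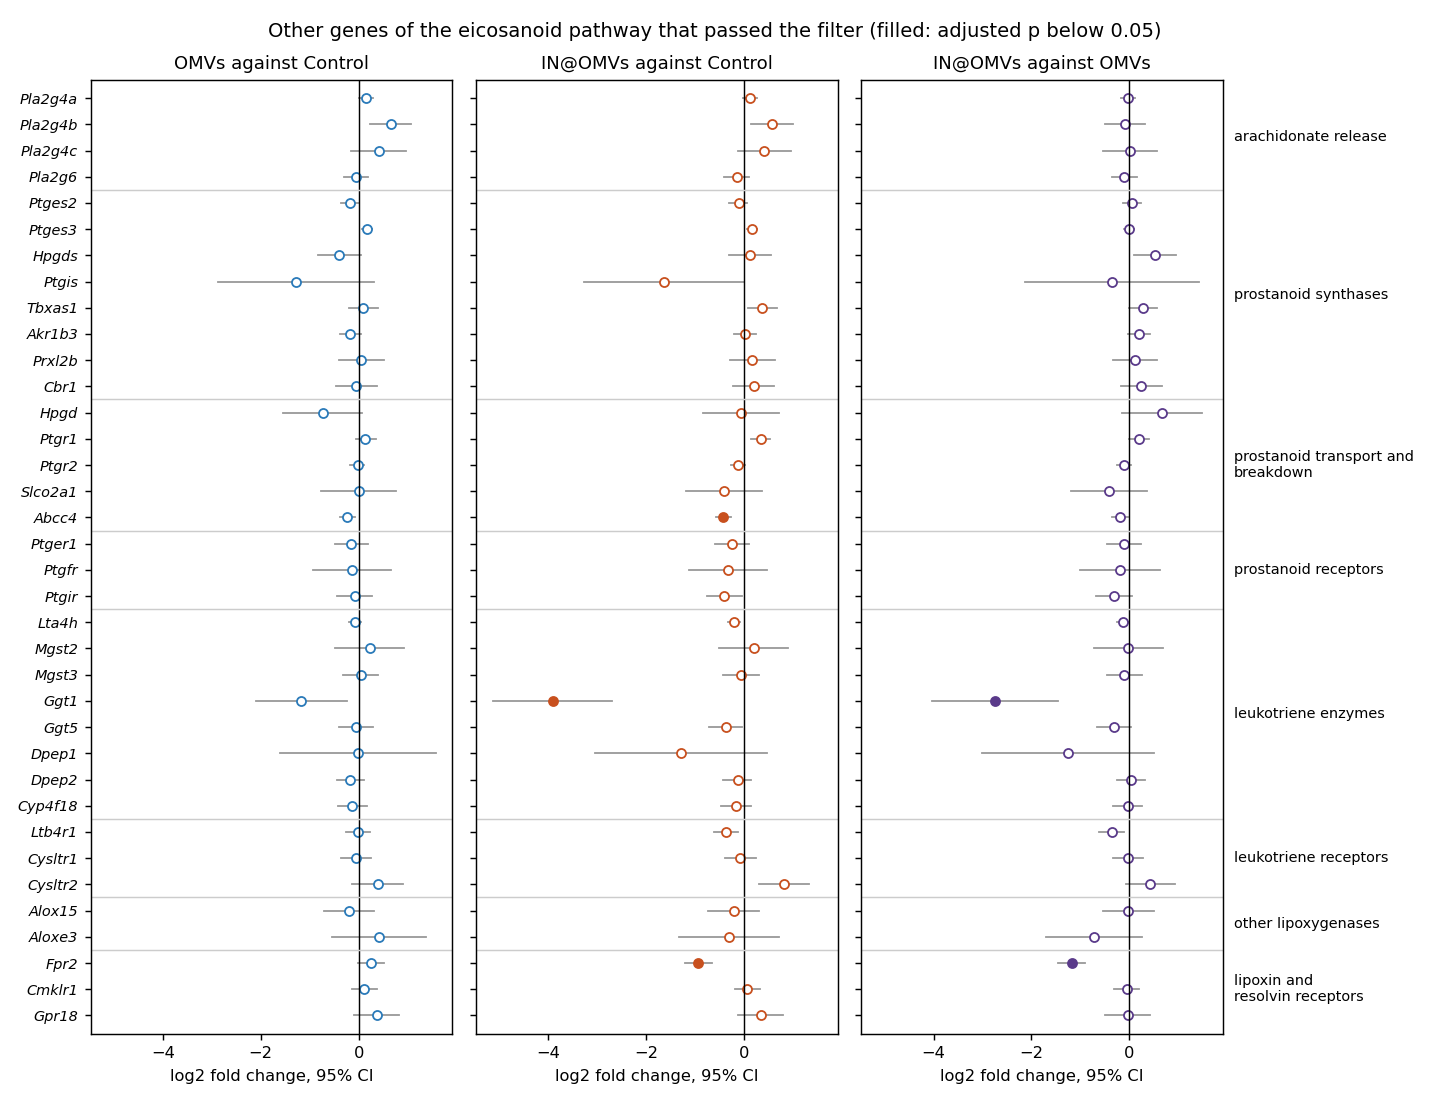
log2 fold change with 95% confidence interval (x axis) of the 36 further pathway genes tested, grouped by role, in the 3 comparisons, with filled points where adjusted p was below 0.05. Filled points are Abcc4, Ggt1 and Fpr2 in IN@OMVs against Control and Ggt1 and Fpr2 in IN@OMVs against OMVs.

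The genes most like Ptgs2 over the 9 libraries, by Pearson correlation of log2 CPM among 10524 genes, were Arg2 (r = 0.984), Sik1 (0.981) and St3gal1 (0.98). They were selected for this likeness, and their values are a description. Arg2, the mitochondrial arginase, was at 20.8 ± 1.48 CPM in Control, 25.5 ± 4.28 CPM in OMVs and 9.95 ± 0.983 CPM in IN@OMVs. Sik1, a salt-inducible kinase, was at 52 ± 4.44, 55.5 ± 4.48 and 35.2 ± 1.92 CPM, and St3gal1, a sialyltransferase, at 162 ± 3.6, 170 ± 4.6 and 121 ± 3.34 CPM (SD, n = 3). All 3 had IN@OMVs lowest without overlap, and their differences between OMVs and Control were smaller than that of Ptgs2.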

How the data were processed

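The deposited table holds expected counts per gene symbol and library, as the values show: 88.8% to 89.6% are whole and columns sum to different totals. The authors' tools were BWA, Bowtie2 and RSEM, with builds mm9 and hg19, per the submitters' processing notes, which give neither versions nor roles, so GRCm38 gene models were used by symbol only.

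After rounding, the test was that of edgeR 4.0.16, run in R 4.3.3 (TMM factors, filterByExpr, quasi-likelihood fit, 1 mean per group over 9 libraries, Benjamini-Hochberg over 13090 genes, threshold 0.05). The common dispersion was 0.0172 (coefficient of variation 0.131), with 6 residual degrees of freedom. Standard errors are the log2 change divided by the square root of F. Alternatives used DESeq2 1.42.0, limma-voom (limma 3.58.1), other filters and left-out libraries.

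The members and all lists were chosen with earlier results of these data known. Named were the 8 genes, list genes that passed in a comparison, the 6 most abundant that did not, and the 3 genes (mean of at least 5 CPM, no predicted models) most correlated with a member that passed.

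What the replicate numbers mark is not in the labels. Deviations from group means of same-numbered libraries correlated by 0.55, 0.41 and 0.12 for OMVs and Control and by 0.44, 0.33 and 0.17 for IN@OMVs and Control. Libraries of different number correlated by -0.53 to 0.41 and by -0.44 to 0.35 there, so the values do not settle the pairing. The main test used no block. The alternative with the replicate number as a block took same-numbered libraries of all groups as belonging together, an assumption. For IN@OMVs and OMVs the correlations of same-numbered libraries were -0.02, 0.58 and -0.48, which do not settle it either. T cell markers were highest in library 1 of every group.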

Additional observations from a re-analysis of the deposited data

How the results depend on the processing

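Ptgs2 kept its direction and its side of the threshold for IN@OMVs under all 17 alternatives (-1.02 to -0.86 against Control and -1.48 to -1.22 against OMVs), and OMVs against Control ran from 0.28 to 0.54. Fpr2 kept both calls and Abcc4 and Ggt1 their calls against Control. Other calls moved with the tool, the block or the libraries fitted. Where fewer libraries were fitted, fewer degrees of freedom remained, and apart from that the cause was not tested. Genes called in OMVs against Control, 55 in the report, were 207 by DESeq2, 36 by limma-voom, 20 with the replicate block (15 shared with the 55), 115 with only the 6 libraries compared, and 0 to 313 with a library or library 1 of every group left out. There were 0 without OMVs 2, OMVs 3, Control 2 or Control 3, 1 without IN@OMVs 3 and 5 without Control 1. Leaving out IN@OMVs 2 gave 32, leaving out IN@OMVs 1 gave 266, and leaving out library 1 of every group gave 313. Of the 8 members, DESeq2 and the 6 libraries called 1 (Alox5), and left-out libraries 0 to 3 (Ptgs2 at 0.54, Ptges at 0.46 and Alox5 at -0.71 without library 1 of every group), and of the pathway list DESeq2 called 1 and left-out libraries 0 to 1.

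In IN@OMVs against Control, 858 genes became 519 with 6 libraries and 393 to 1635 with libraries left out: 1635 without IN@OMVs 1, 1475 without library 1 of every group, 496 without IN@OMVs 3 and 486, 400 and 393 without Control 1, 2 and 3. Members called were 2 by DESeq2 and by limma-voom and 1 to 4 with libraries left out (Ptgs2, Ptger4, Alox5 and Alox5ap without IN@OMVs 1). Pathway genes called were 7 by DESeq2 and 3 to 10 with libraries left out (10 without IN@OMVs 1, 7 without library 1 of every group). In IN@OMVs against OMVs, 373 genes became 646 by DESeq2, 195 with 6 libraries and 180 to 844 with libraries left out: 786 without IN@OMVs 1, 844 without library 1 of every group, 191 without IN@OMVs 3, 212, 180 and 199 without OMVs 1, 2 and 3, and 243 without Control 3. Members called were 2 by DESeq2 and 1 to 2 with libraries left out, the other one being Ptges, and pathway genes 1 by limma-voom and 1 to 3 with libraries left out. The replicate block called 2 members in that comparison, with Ptges at -1.03 (adjusted p = 0.0411, edgeR). In the comparisons with Control the block changed no member call.

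Estimates near 0 that changed sign, none of them called, did so over these ranges of the log2 change with libraries left out. For IN@OMVs against Control they were Ptgs1 (-0.06 at the lowest), Ptger2 (-0.17 to 0.09), Akr1b3 (-0.11 to 0.09) and Cmklr1 (-0.08 to 0.14). For IN@OMVs against OMVs they were Ptger4 (-0.11 to 0.26), Alox5ap (-0.26 to 0.08), Ltc4s (-0.14 to 0.13, and 0 with 6 libraries), Ptges3 (-0.03 to 0.01), Dpep2 (-0.16 to 0.14), Cyp4f18 (-0.22 to 0.07) and Cmklr1 (-0.25 to 0.04). In OMVs against Control Tbxas1 ran from -0.03 to 0.17. Depth limits Ltc4s and Ggt1, which rest on 76 counts or fewer in a library.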
